A study of Mus musculus with 2 samples.

Results

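Spp1, Gpnmb, Trem2, Lgals3 and Cd44 were followed through the cells of injured mouse skeletal muscle, as 5 listed genes of the 27998 in the count matrices. Their unique molecular identifier (UMI) counts were summed over the cells of each cell type label in the deposited annotation, separately for each time point, and their joint detection was counted within the 6 labels that name a monocyte or a macrophage. The series held 2 single-cell RNA-seq libraries of the tibialis anterior, the muscle at the front of the shin, prepared with 10x Genomics v3 chemistry. One came from muscle taken 2 days and the other from muscle taken 7 days after injection of notexin, a snake venom phospholipase that destroys myofibres and sets off regeneration. Both labels gave the genotype as C57Bl/6, the age as 7 months and the sex as female, whereas the deposited annotation gave C57BL/6J males of 4 months at day 2 and 7 months at day 7, with 1 mouse per library and the whole muscle dissociated. No uninjured muscle was analysed here.

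With 1 library per time point there were no replicates, so no p-value was computed, and time after injury, mouse, age and library cannot be told apart. Intervals are exact 95% intervals that cover counting error only. Levels are given as CPM, the gene's counts scaled to the same total of counts of all genes in the same cells, a ratio as the log2 of the day 7 CPM over the day 2 CPM, and a gene was counted as higher or lower only past 2-fold. The kept and labelled cells numbered 3178 at day 2 and 3196 at day 7, with a median of 9058.5 and 6583 counts per cell over all kept cells. Monocyte and macrophage labels held 1292 cells at day 2 and 757 at day 7, or 40.7% and 23.7% of labelled cells, with a median of 11696 and 8546 counts. Only 1 kept barcode occurred in both libraries. Xist was counted 5 times at day 2 and 1 time at day 7, against 6575 and 4856 counts of 4 Y-linked genes, which goes against the female label of both libraries.

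Macrophages that clear dead tissue take up large amounts of membrane lipid. Spp1, Gpnmb, Trem2 and Lgals3 belong to the set that lipid-handling macrophages of injured or diseased tissue are known to carry. Spp1 encodes osteopontin, a secreted phosphoprotein that binds integrins and CD44, and Cd44 encodes that receptor, which also binds hyaluronan. Trem2 is a surface receptor for lipids and lipoproteins that signals through the adaptor TYROBP, Gpnmb is a transmembrane glycoprotein of lysosomes and phagosomes controlled by MITF-family transcription factors, and Lgals3 encodes galectin-3, a lectin that binds galactosides and is recruited to damaged lysosomes.

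All 5 genes are protein-coding, and the annotation of GRCm38 places Spp1 (ENSMUSG00000029304) at chr5:104435118-104441050 and Gpnmb (ENSMUSG00000029816) at chr6:49036546-49070929, both on the plus strand. Trem2 (ENSMUSG00000023992) lies at chr17:48346401-48354147 and Lgals3 (ENSMUSG00000050335) at chr14:47367751-47386160, also on the plus strand. Cd44 (ENSMUSG00000005087) lies at chr2:102811141-102901665 on the minus strand.

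The promoter sequences of Spp1, Gpnmb and Trem2 are shown because these are the 3 genes whose joint detection is described further on. They are RefSeq sequence of GRCm38.p6, plus strand, 5′ to 3′, at chr5:104434861-104435110 for Spp1, chr6:49036283-49036532 for Gpnmb and chr17:48346151-48346400 for Trem2. The Spp1 and Trem2 stretches end at the base before the RefSeq start site, and the Gpnmb stretch runs from 235 bases before to 15 bases after it. Capitals mark matches to GAGGAA, a core bound by ETS factors such as PU.1, or to TGANTCA, the core bound by AP-1, on either strand.
Spp1: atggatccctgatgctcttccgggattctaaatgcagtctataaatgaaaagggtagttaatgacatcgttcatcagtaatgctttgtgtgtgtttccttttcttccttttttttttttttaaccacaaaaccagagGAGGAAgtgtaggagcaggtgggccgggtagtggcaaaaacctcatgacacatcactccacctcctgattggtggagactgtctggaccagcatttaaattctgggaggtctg
Gpnmb: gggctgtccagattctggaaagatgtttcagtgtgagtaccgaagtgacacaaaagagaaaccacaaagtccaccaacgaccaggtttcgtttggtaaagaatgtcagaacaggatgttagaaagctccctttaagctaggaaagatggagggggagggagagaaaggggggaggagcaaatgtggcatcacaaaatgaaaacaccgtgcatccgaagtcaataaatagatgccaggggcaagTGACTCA
Trem2: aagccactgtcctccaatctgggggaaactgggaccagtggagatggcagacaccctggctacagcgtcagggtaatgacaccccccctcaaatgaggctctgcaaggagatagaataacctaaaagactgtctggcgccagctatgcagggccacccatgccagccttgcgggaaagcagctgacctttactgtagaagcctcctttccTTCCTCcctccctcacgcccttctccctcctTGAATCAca
Over 300-base windows from 250 bases before to 50 after each start site, GAGGAA on either strand was found in 28.3% and TGANTCA in 7.81% of 32851 RefSeq entries. Among 6 entries for the 5 genes, 3 held GAGGAA (Spp1, Trem2 and Cd44) and 2 held TGANTCA (Gpnmb and Trem2). The Trem2 window was the only one of the 6 with both, TTCCTC at −40 to −35 and TGAATCA at −9 to −3 relative to the start site. The Gpnmb match, TGACTCA, lay at 9 to 15 bases after the start site, and the Spp1 match, GAGGAA, at −113 to −108. Letters of sites used by the MITF family were in 0 of the 6 entries. Of all entries 7.15% held CACGTG on either strand, 3.77% held TCATGTG, and 3.77% held TCACGTG, which overlaps the first motif. A match is a description of letters and not a site shown to be used.

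The labels were checked against marker lists before the genes were read. The summed level of 7 macrophage markers ranged over the 6 labels from 2596 to 6973 CPM at day 2 and from 7424 to 17648 CPM at day 7, and that of 4 monocyte markers from 832 to 4602 and from 68.4 to 1543 CPM. The cells labelled patrolling monocytes had the lowest monocyte sum at both days. Cx3cr1, a receptor that patrolling monocytes are known for, was at 10.8 CPM in them at day 2, below the level in M2 Cx3cr1_hi macrophages, and at 199.7 CPM at day 7, the lowest of the 6 labels. Their Cd68, a lysosomal macrophage protein, was the highest of the 6 at 1222 and 1445 CPM. The study defined this label by high Fabp5 without Cx3cr1 and Ly6c2, which is not the usual use of the name. Ly6c2 was at 60.1 and 4.9 CPM in it. The label is kept here as the annotation's own.

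Counts of other cell types' markers were also present. Over the 6 labels, 5 neutrophil markers summed to 51.9 to 137 CPM at day 2 and 66.9 to 98.4 CPM at day 7, 5 markers of fibro-adipogenic progenitors (FAPs) to 12.7 to 20.9 and 151 to 317 CPM, and 4 myofibre markers to 9.13 to 16.5 and 332 to 1191 CPM. The 5 dendritic markers summed to 230 to 4204 and 3810 to 12735 CPM, of which H2-Ab1, an antigen presentation gene that macrophages share, made up 620 of 625 and 7740 of 7748 CPM over all 6 labels. Of 5 T and NK cell markers, 2 were at 0 at day 2 and the sum was 0.485 CPM, against 4.52 CPM at day 7. The 5 myogenic markers summed to 0.971 and 34.6 CPM and the 3 B cell markers to 3.58 and 27.0 CPM over all 6 labels. FAP, myofibre, myogenic, dendritic, B, T and NK cell sums were thus higher at day 7, along with Gpnmb and Trem2 below, as were the tenocyte (1.09 and 2.53 CPM) and neural sums (0.728 and 1.46 CPM). The part of myofibre, dendritic, tenocyte and neural counts was not tested. Without the cells that held 3 or more counts of the neutrophil, FAP, endothelial, myogenic, lymphocyte or smooth muscle lists, which left 1125 and 496 cells, the log2 ratio was 2.98 for Gpnmb, 2.25 for Trem2 and −1.86 for Cd44, against 3.01, 2.34 and −1.77 with them.

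In monocytes and macrophages together, Gpnmb and Trem2 were higher at day 7, Cd44 was lower, and Spp1 and Lgals3 lay within 2-fold of their day 2 level. Of the 5 genes, 2 were thus past 2-fold higher, where 11.0% of the 8080 genes with at least 100 counts in one library were, and 1 was past 2-fold lower, where 14.5% were. The median log2 ratio of all these genes was −0.21, so that a ratio of −0.21 is the level of the typical gene.

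Gpnmb was at 176 CPM (170 to 183) at day 2 and 1424 CPM (1397 to 1451) at day 7, 8.07-fold higher or 3.01 on the log2 scale (2.95 to 3.07). For Trem2 the level was 276 CPM (268 to 284) and 1399 CPM (1372 to 1426), which was 5.07-fold or 2.34 on the log2 scale (2.29 to 2.39). The receptor and the lysosomal glycoprotein were both far above the median gene, by 2.55 and 3.22 on the log2 scale. Cd44 was at 830 CPM (816 to 844) and 243 CPM (232 to 255), a log2 ratio of −1.77 (−1.84 to −1.70), or −1.56 relative to the median gene.

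Spp1 was at 4500 CPM (4468 to 4533) at day 2 and 5787 CPM (5733 to 5842) at day 7, which gave a log2 ratio of 0.36 (0.35 to 0.38). Its direction depended on how cells were weighted: the ratio was −0.050 for the mean of each cell's own CPM and −0.63 for the median cell, at 485 CPM and 313 CPM. Lgals3 was at 4952 CPM (4918 to 4986) and 4428 CPM (4380 to 4476), a log2 ratio of −0.16 (−0.18 to −0.14) that turned to 0.050 when scaled by the median of gene ratios. Neither gene was therefore described as higher or lower in the whole class.

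Shares of cells with a count were compared at equal depth, with each cell thinned to 2000 counts and 2 and 4 shallower cells left out. Gpnmb was then detected in 13.9% of monocytes and macrophages at day 2 and 44.8% at day 7, and Trem2 in 31.2% and 75.7%. Cd44 was detected in 75.3% and 34.4%, Lgals3 in 96.9% and 86.9%, and Spp1 in 55.0% and 51.1%. Before thinning the shares were 27.8% and 58.8% for Gpnmb, 69.7% and 88.2% for Trem2, 98.3% and 75.4% for Cd44, 99.9% and 96.3% for Lgals3, and 75.1% and 66.6% for Spp1. In smooth muscle cells, whose median depth was 13232 and 8635.5 counts and which should lack Trem2, thinned shares were 0% and 1.35% for Gpnmb, 0.331% and 0.448% for Trem2 and 3.97% and 3.59% for Spp1. The Gpnmb, Trem2 and Spp1 shares of the class were thus above that background at both days. Lgals3 and Cd44 were in 11.3% and 29.1% of thinned smooth muscle cells at day 2 and in 4.93% and 13.9% at day 7.

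Gpnmb and Trem2 were also higher at day 7 within single labels. Ratios were computed for the 5 labels with at least 50 cells at both days, which left out Cxcl10+ monocytes with 38 and 45 cells. Gpnmb and Trem2 were past 2-fold higher in 5 of 5 labels, Cd44 past 2-fold lower in 4, Spp1 past 2-fold lower in 2 and Lgals3 in 1, with no other member past 2-fold in any of them. The 6 labels were defined by the authors on clusters of a larger collection in which these genes may have taken part, so differences between labels are descriptions.

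**Figure D1:**
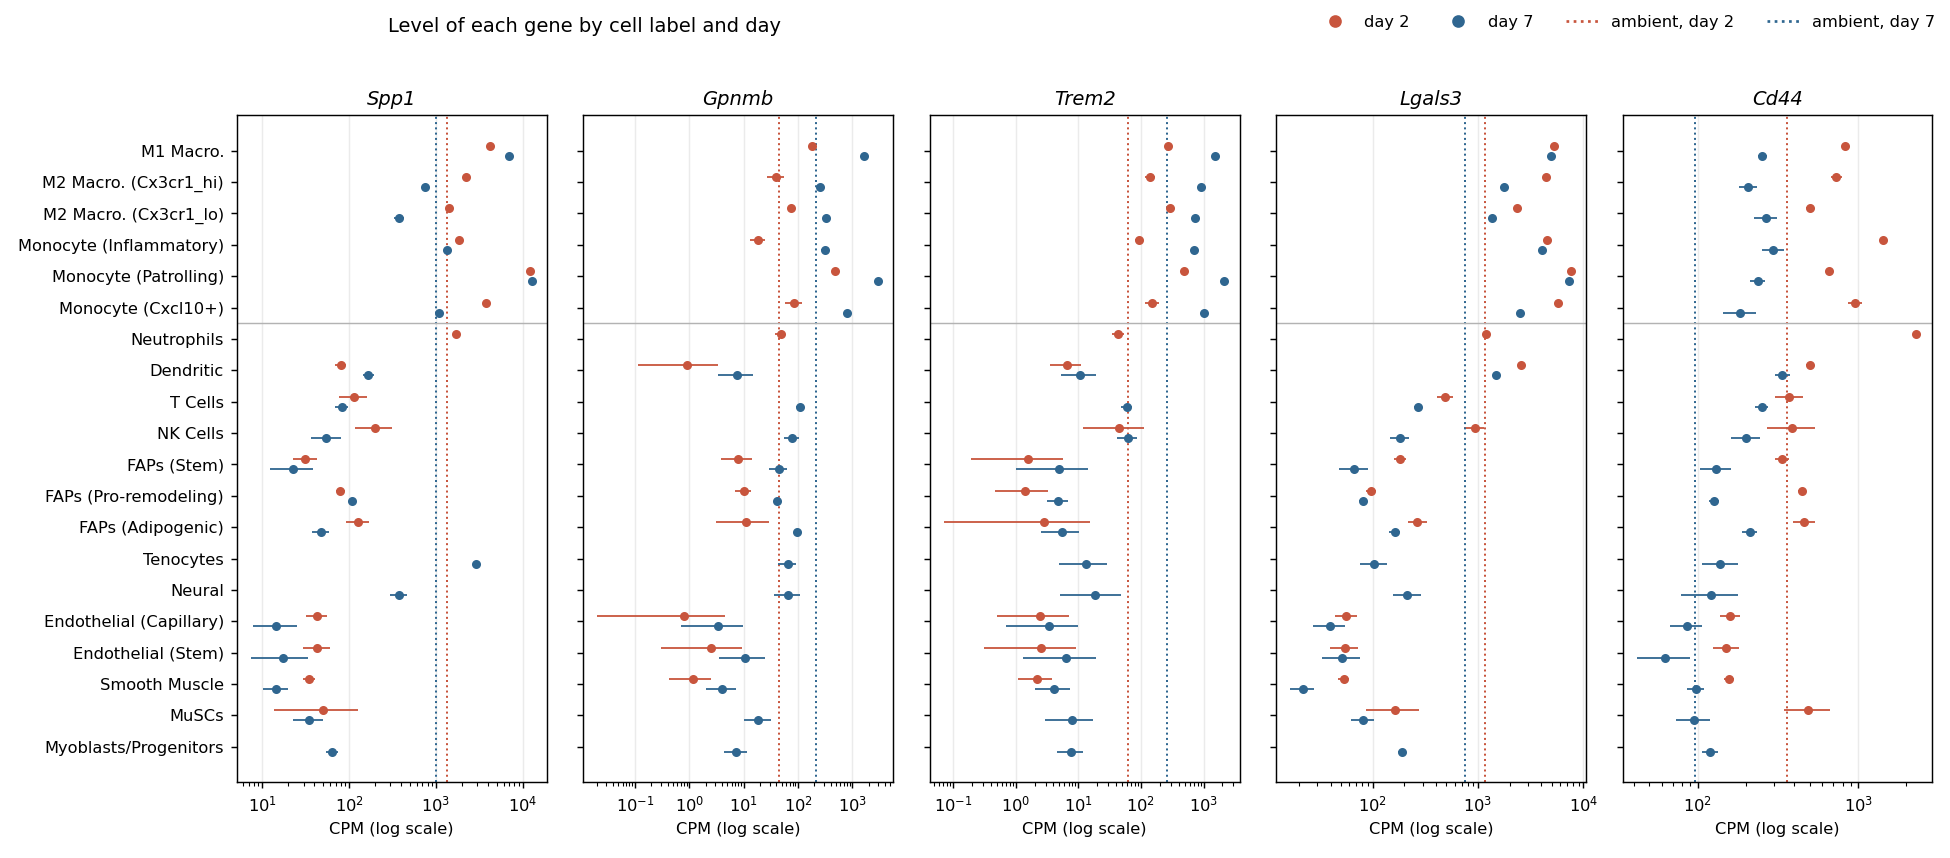
Summed level of each of the 5 genes per cell type label with at least 20 kept cells, in CPM on log axes, for day 2 and day 7, without B cells, arterial and venous endothelium and myonuclei. Points are levels, bars their exact 95% intervals, and dotted lines the level in barcodes of 1 to 100 counts, and labels with 0 counts are not drawn. Gpnmb and Trem2 points of monocyte and macrophage labels lie to the right at day 7, up to 2986 and 2154 CPM in patrolling monocytes.

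In M1 macrophages, the largest of the labels with 468 and 228 cells, Gpnmb was at 183 and 1631 CPM (log2 ratio 3.16, 3.07 to 3.25) and Trem2 at 275 and 1536 CPM (2.48, 2.40 to 2.56). These 2 of 5 genes were past 2-fold higher, against 9.49% of 6166 genes. Cd44 was at 834 and 254 CPM (−1.72), the 1 member past 2-fold lower, against 17.4% of genes. Spp1 was at 4135 and 6897 CPM there, a log2 ratio of 0.74 (0.71 to 0.76), and 0.61 without the 1 cell with the most Spp1 at each day.

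In the cells labelled patrolling monocytes, 186 and 136 cells, Gpnmb was at 475 and 2986 CPM (2.65, 2.56 to 2.74) and Trem2 at 490 and 2154 CPM (2.14, 2.04 to 2.23), 2 of 5 genes past 2-fold higher against 7.95% of 3709 genes. Cd44 was at 660 and 237 CPM (−1.48), 1 of 5 past 2-fold lower against 19.1%. Spp1 was at 12111 CPM (11982 to 12242) and 12695 CPM (12511 to 12881) there. The log2 ratio of 0.068 became −0.024 without the top cell of each day, and the median cell went from 5263 to 2809 CPM. This label had the highest level of Spp1, Gpnmb, Trem2 and Lgals3 of the 6 labels at both days.

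M2 Cx3cr1_hi macrophages, 82 and 159 cells, had Gpnmb at 39.2 and 254 CPM (2.70, 2.19 to 3.25) and Trem2 at 138 and 893 CPM (2.69, 2.42 to 2.97), past 2-fold higher against 14.4% of 1790 genes. The other 3 members were past 2-fold lower, against 19.6% of genes: Spp1 went from 2210 to 748 CPM (−1.56), Lgals3 from 4457 to 1784 CPM (−1.32) and Cd44 from 731 to 206 CPM (−1.82). At day 2 this label also carried the highest dendritic sum of the 6, 4204 CPM. Spp1 there was also uneven, since 1 cell held 36.4% of its counts at day 2 and another 39.8% at day 7, and the log2 ratio without those cells was −1.66.

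M2 Cx3cr1_lo macrophages, 242 and 105 cells, had Gpnmb at 74.8 and 329 CPM (2.14, 1.85 to 2.42) and Trem2 at 287 and 722 CPM (1.33, 1.16 to 1.50), past 2-fold higher against 5.76% of 4113 genes. Spp1 was past 2-fold lower there, against 22.2% of genes, at 1423 and 374 CPM (−1.93, −2.13 to −1.73). Cd44 went from 498 to 267 CPM (−0.90) and stayed within 2-fold.

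Inflammatory monocytes, 276 and 84 cells, began with the least Gpnmb and Trem2. Gpnmb was at 18.3 and 314 CPM (4.11, 3.63 to 4.61) and Trem2 at 93.3 and 710 CPM (2.93, 2.69 to 3.17), past 2-fold higher against 5.15% of 3342 genes. The day 2 Gpnmb level lay below the 44.9 CPM of free RNA at that day, described below. Cd44 was past 2-fold lower, against 22.2% of genes, at 1437 and 295 CPM (−2.29, −2.52 to −2.06). Spp1 was at 1847 and 1330 CPM, but 1 cell held 565 of the 740 day 7 counts, or 76.4%. Without the top cell of each day Spp1 at day 7 was at 329 CPM and its log2 ratio moved from −0.47 to −2.40.

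Lgals3 stayed within 2-fold in the other 4 labels. It was at 5227 and 4956 CPM in M1 macrophages, 7678 and 7356 CPM in patrolling monocytes, 4496 and 4053 CPM in inflammatory monocytes and 2357 and 1357 CPM in M2 Cx3cr1_lo macrophages. Cxcl10+ monocytes were given no ratio, and their levels moved the same way for Gpnmb (83.6 and 792 CPM), Trem2 (152 and 1028 CPM) and Cd44 (960 and 184 CPM). Spp1 was at 3746 and 1093 CPM and Lgals3 at 5780 and 2533 CPM in them.

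**Figure D2:**
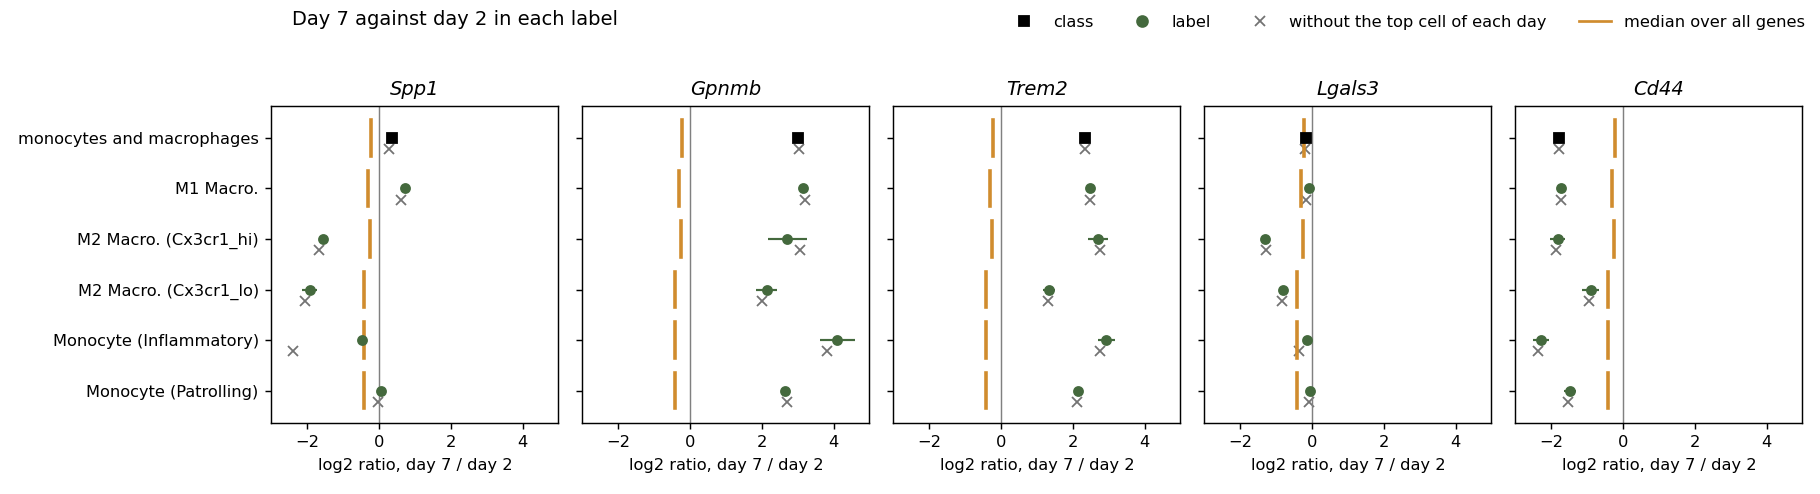
Log2 ratio of day 7 to day 2 for each of the 5 genes in all monocytes and macrophages (squares) and in the 5 labels with at least 50 cells at both days (circles), with 95% counting intervals. Crosses leave out the cell with the most counts of the gene at each day, and orange bars give the median of all genes tested. Gpnmb lies between 2.14 and 4.11 in the 5 labels, and Spp1 between −1.93 and 0.74. Lgals3 in the class, at −0.16, turns to 0.050 when scaled by the median of gene ratios.

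The spread of levels between labels narrowed for Gpnmb, from 26.0-fold between the highest and lowest of the 6 labels at day 2 to 11.7-fold at day 7. The lowest Gpnmb levels at day 2, 18.3 CPM in inflammatory monocytes and 39.2 CPM in M2 Cx3cr1_hi macrophages, lay below that of free RNA, 44.9 CPM, which was within the interval of the latter (27.1 to 54.8 CPM). The spread also narrowed for Trem2 from 5.26-fold to 3.03-fold. For Spp1 it widened from 8.51-fold to 34.0-fold, and for Lgals3 from 3.26-fold to 5.42-fold. The lowest Spp1 levels at day 7 lay below the 991 CPM of free RNA. They were 374 CPM in M2 Cx3cr1_lo and 748 CPM in M2 Cx3cr1_hi macrophages. Cd44 went from 2.89-fold to 1.60-fold, with inflammatory monocytes highest at both days.

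The order of labels was patrolling monocytes, M1 macrophages and Cxcl10+ monocytes for Gpnmb at both days, with M2 Cx3cr1_lo macrophages next. Intervals of Cxcl10+ monocytes and M2 Cx3cr1_lo macrophages overlapped at day 2, and at day 7 those of M2 Cx3cr1_lo with inflammatory and of inflammatory with M2 Cx3cr1_hi cells. For Trem2, M2 Cx3cr1_lo and M1 macrophages overlapped at day 2, as did Cxcl10+ monocytes and M2 Cx3cr1_hi macrophages at both days, and M2 Cx3cr1_lo macrophages and inflammatory monocytes at day 7. No neighbours overlapped for Spp1 at either day, but the third place of inflammatory monocytes at day 7 rested on 1 cell. Without it their 329 CPM lay within the interval of M2 Cx3cr1_lo macrophages, the last in the order (326 to 427 CPM). All neighbours overlapped for Cd44 at day 7. At day 2 only M2 Cx3cr1_hi macrophages and patrolling monocytes overlapped for Cd44, and only inflammatory monocytes and M2 Cx3cr1_hi macrophages for Lgals3, which had no overlap at day 7.

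Counts were more concentrated in few cells for the secreted Spp1 than for the receptor Trem2. For Spp1, 61 cells (4.72% of the class) held 50% of all its counts at day 2 and 19 cells (2.51%) at day 7. The 130 highest cells at day 2 and the 76 highest at day 7 held 69.9% and 85.6% of Spp1 counts. For Trem2 it took 193 cells at day 2 and 109 at day 7 to reach 50% of the counts, and the 130 and 76 highest cells held 37.8% and 40.4%.

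Gpnmb went the other way from Spp1, with 81.1% of its counts in the 130 highest cells at day 2 and 65.4% in the 76 highest at day 7. For Lgals3 the share was 33.3% and 56.2%, and for Cd44 23.4% and 40.2%. All these shares are on unthinned counts. The class had 2908 and 10708 counts of Gpnmb and 13685 and 1828 of Cd44, and the part of sparser counts in the shares was not tested. A single M1 barcode at day 7, the deepest of the class with 84142 counts, had the most counts of all 5 genes at that day, 3816 of Spp1 (8.77% of the class), 633 of Gpnmb, 143 of Trem2, 1484 of Lgals3 and 38 of Cd44. It also held 142 counts of macrophage markers, 11 of neutrophil, 5 of FAP, 4 of dendritic and 11 of myofibre markers. Without the top cell of each gene and day the class log2 ratio was 0.28 for Spp1, 3.02 for Gpnmb, 2.34 for Trem2 and −1.78 for Cd44.

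**Figure D3:**
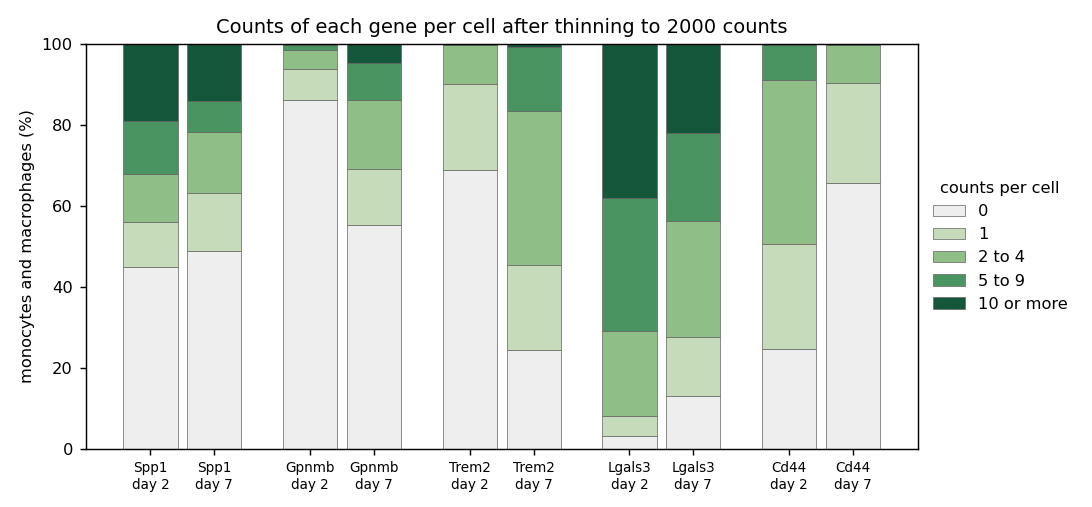
Percent of monocytes and macrophages with 0, 1, 2 to 4, 5 to 9 and at least 10 counts of each gene after every cell was thinned to 2000 counts, as stacked bars for day 2 and day 7. The share without a Gpnmb count is 86.1% at day 2 and 55.2% at day 7, and that without a Trem2 count 68.8% and 24.3%, while the share with at least 10 Spp1 counts is 19.1% and 14.2%.

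At equal depth, cells with at least 10 counts made up 19.1% of the class at day 2 and 14.2% at day 7 for Spp1, and 38.1% and 21.9% for Lgals3. For Gpnmb the share was 0.233% and 4.78%. Cells without Spp1 were 45.0% and 48.9% of the class.

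Spp1, Gpnmb and Trem2 were detected together in more cells at day 7 than at day 2. All 3 had a count in 297 cells at day 2 (23.0%, 20.7% to 25.4%) and 379 cells at day 7 (50.1%, 46.4% to 53.7%). After thinning to 2000 counts the shares were 6.28% (5.02% to 7.74%, 81 of 1290 cells) and 31.5% (28.2% to 34.9%, 237 of 753 cells). Cells with none of the 3 were 33.6% and 17.5%, and cells with all 5 genes 4.11% and 9.56%.

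Joint detection in the whole class was above the product of the 3 single shares, which was 2.38% at day 2 and 17.3% at day 7. The observed share was thus 2.64 and 1.82 times the product. Labels with different levels of all 3 genes are mixed in that number, so it was also read label by label.

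In patrolling monocytes the thinned share was 22.6% (16.8% to 29.3%) at day 2 and 74.3% (66.1% to 81.4%) at day 7, against products of 21.3% and 72.3%, 1.06 and 1.03 times. At day 7 the single shares there were 83.8% for Spp1, 88.2% for Gpnmb and 97.8% for Trem2, so the observed share had little room above the product. The correlation across these cells at equal depth was 0.16 and 0.34 for Spp1 with Gpnmb, 0.04 and 0.27 for Spp1 with Trem2, and 0.06 and 0.18 for Gpnmb with Trem2, given as a description in sparse counts of 1 library a day. In M1 macrophages the shares were 6.21% and 40.4% against products of 2.38% and 25.8%, and in M2 Cx3cr1_hi macrophages 14.5% at day 7 against 7.41%. M2 Cx3cr1_lo macrophages were at 2.90% and 7.92% against 1.76% and 5.47%, inflammatory monocytes at 0.362% and 7.14%, the latter against 1.67%, and Cxcl10+ monocytes at 2.63% and 15.6%. Of all cells with the 3 genes, patrolling monocytes supplied 42 of 81 at day 2 and 101 of 237 at day 7, and M1 macrophages 29 and 92.

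**Figure D4:**
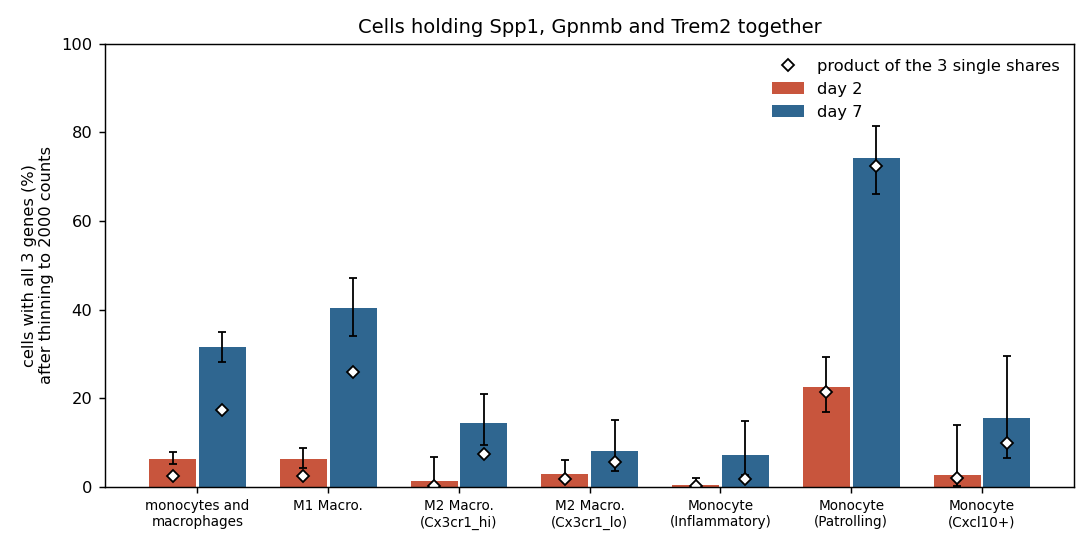
Percent of cells with at least 1 count of Spp1, Gpnmb and Trem2 together after thinning to 2000 counts, per monocyte or macrophage label and day, with exact 95% intervals as bars, and diamonds for the product of the 3 single shares. Patrolling monocytes are highest at both days, 22.6% and 74.3%, with diamonds at 21.3% and 72.3%, and the M1 diamonds of 2.38% and 25.8% lie below the observed 6.21% and 40.4%.

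Pairs of genes were described by odds ratios over the thinned cells of the class, in which labels with different levels are mixed. Spp1 with Gpnmb had an odds ratio of 4.87 at day 2 and 5.98 at day 7, Gpnmb with Trem2 3.13 and 6.89, and Spp1 with Trem2 2.08 and 6.19. Cd44 was below 1 with these 3 genes, at 0.736 and 0.901 with Spp1, 0.618 and 0.808 with Gpnmb and 0.638 and 0.686 with Trem2, while with Lgals3 it was at 1.68 and 0.953. Across cells within a label, in 12 combinations of label and day at equal depth, the correlation of Spp1 with Gpnmb was positive in 12, with a median of 0.25 and a range of 0.07 to 0.59. That of Spp1 with Trem2 had a median of 0.25 (0.02 to 0.46), and that of Gpnmb with Trem2 0.16 (−0.008 to 0.49). Lgals3 had medians of 0.31 with Gpnmb, 0.26 with Spp1 and 0.21 with Trem2, each positive in 12 of 12. The correlation of Spp1 with Cd44 had a median of −0.07 and was positive in 1 of 12. Cd44 had medians of −0.09 with Gpnmb and −0.05 with Trem2, each positive in 3, and 0.05 with Lgals3, positive in 7. These cells share a library and the counts are sparse, so the values are given as descriptions.

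Cells with all 3 genes were then set beside the other cells of the class for genes that did not choose them. The 11 lipid-associated genes of a list chosen with earlier results of these data known were past 2-fold higher in them for 7 of 11 genes at day 2 and 8 of 11 at day 7, and the other genes of the list also had intervals above 0. Over all genes, 1.49% of 7863 and 1.38% of 6376 were past 2-fold higher. The list's median log2 difference was 1.21 and 1.41, beside −0.03 and −0.05 over all genes. The cells with all 3 genes were deeper, with a median of 16208 counts against 11470 at day 2 and 11305 against 7287 at day 7, and the part of depth was not tested.

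Fabp5, a carrier of fatty acids, was at 9162 CPM in the cells with all 3 genes and 3429 CPM in the rest at day 2 (log2 difference 1.42), and at 3066 and 857 CPM at day 7 (1.84). Cd9, a tetraspanin, was at 643 and 199 CPM at day 2 (1.69) and 1264 and 413 CPM at day 7 (1.61). Lpl, lipoprotein lipase, was at 660 and 266 CPM (1.31) and 1127 and 375 CPM (1.59). Fabp4, a related fatty acid carrier, was at 592 and 99.9 CPM (2.57) and 168 and 63.3 CPM (1.41). Each was past 2-fold higher in the cells with all 3 genes at both days, although Fabp5 in the class as a whole was lower at day 7. High Fabp5 is also part of how the study defined the patrolling label, to which 42 of the 81 cells at day 2 belonged.

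The list was also read inside single labels, and whether its difference was unequal between them was not tested. In M1 macrophages, 6 of 11 lipid-associated genes at day 2 and 7 of 11 at day 7 were past 2-fold higher in the cells with all 3 genes, against 1.79% of 5974 and 1.26% of 3967 genes. Fabp5 differed by 1.54 and 1.27 on the log2 scale there, and Ctsl, a lysosomal protease, by 0.62 and 2.16. In patrolling monocytes 2 of 11 were past 2-fold higher at day 2 and 4 of 11 at day 7, against 0.305% of 3603 and 1.74% of 1836 genes. The list's median there was 0.41 and 0.43. Intervals lay above 0 for 10 and 8 of the 11, and Lipa at day 7, at −0.24 (−0.46 to −0.0096), lay below it.

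In the mixed class, monocyte markers were past 2-fold lower in the cells with all 3 genes for 3 of 4 at day 2 and for all 3 that had enough counts at day 7, against 4.91% and 1.85% of all genes. In M1 macrophages, with 29 of the 81 cells at day 2 and 92 of the 237 at day 7, 3 of 4 and 3 of 3 were, against 5.62% and 1.13% of genes, with medians of −1.35 and −1.95. Within patrolling monocytes at day 2, which supplied 42 of the 81 cells, 0 of 4 were, against 0.666% of genes, and the median was −0.15. Intervals there lay below 0 for 2 of the 4, with a lowest value of −0.61, and above 0 for Chil3 alone, at 0.48 (0.29 to 0.66). Of 7 macrophage markers in the mixed class, 0 were past 2-fold higher at either day, with medians of −0.09 and −0.18. At day 2 intervals lay above 0 for 2 and below 0 for 2, and at day 7 intervals lay below 0 for 6 of 7 and above 0 for Cd68 alone, at 0.90 (0.83 to 0.97). Mrc1, the mannose receptor, was the lowest of the 7, at −0.82 (−0.94 to −0.71) and −1.29 (−1.50 to −1.07). Inside M1 macrophages, intervals of the 7 lay above 0 for 5 and below 0 for 2 at day 2. At day 7 they lay above 0 for 1 and below 0 for 2, and the M1 medians were 0.27 and 0.01. Inside patrolling monocytes 1 of 7 lay above and 4 below 0 at day 2, and 1 of 6 above and 3 below at day 7. The medians there were −0.26 and −0.12. In the mixed class Plac8, a monocyte marker, differed by −2.50 at day 2 and −3.21 at day 7 on the log2 scale, and Ccr2, the receptor that draws monocytes out of the marrow, by −1.44 and −2.08. Cd44 differed by −0.52 and −0.17 and stayed within 2-fold. Apoe, an apolipoprotein that TREM2 binds, differed by 0.76 and 0.11, and Lgals3 by 1.09 at day 2.

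The share of each gene's counts that lay in monocytes and macrophages was far lower for Cd44 than for the other 4 genes. Of all counts in labelled cells, the class held 97.3% of Trem2 at day 2 and 97.8% at day 7, 94.7% and 94.2% of Spp1, 94.4% and 93.5% of Gpnmb and 89.7% and 90.1% of Lgals3, while it held 48.4% and 27.2% of the counts of all genes. Of Cd44 it held 59.7% and 38.6%. The CPM over all labelled cells, of which the class made up a smaller share at day 7, gave log2 ratios of −0.46 for Spp1, 2.20 for Gpnmb, 1.50 for Trem2 and −1.98 for Cd44, with Lgals3 at 2676 and 1338 CPM.

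Barcodes of 1 to 100 counts, which hold mostly free RNA, had Spp1 at 1338 CPM at day 2 and 991 CPM at day 7, Gpnmb at 44.9 and 218 CPM and Trem2 at 62.5 and 258 CPM. Lgals3 was at 1174 and 755 CPM and Cd44 at 361 and 96.5 CPM in them. Free Gpnmb and Trem2 were thus past 2-fold higher and free Cd44 past 2-fold lower at day 7, as in the class, while free Spp1 and Lgals3 stayed within 2-fold. The free level is that of barcodes with mostly free RNA, so a label below it is not shown to lack the transcript. Smooth muscle cells had Spp1 at 34.7 and 14.4 CPM and Gpnmb at 1.17 and 4.06 CPM, far below it. All 6 monocyte and macrophage labels were above the free level for Trem2, Lgals3 and Cd44 at both days, 6 and 4 of them for Spp1 and 4 and 6 for Gpnmb. Those not above it were both M2 labels for Spp1 at day 7, and inflammatory monocytes and M2 Cx3cr1_hi macrophages for Gpnmb at day 2. Of 12 other labels with at least 20 cells at day 2 and 17 at day 7, Trem2 was above it in 0 and 0, Gpnmb in 1 (neutrophils) and 0, Spp1 in 1 (neutrophils) and 1 (tenocytes), Lgals3 in 2 (dendritic cells and neutrophils) and 1 (dendritic cells), and Cd44 in 7 and 10. With the free level taken from barcodes of 1 to 10 counts, a choice made after seeing the data, neutrophils at day 2 were no longer above it for Gpnmb (47.7 CPM against 51.0) and Lgals3, and the Cd44 counts were 5 and 9, T and NK cells among those lost at day 2. The calls used point values, and some lay within the interval of the free level. Among them were Gpnmb in neutrophils at day 2 (37.7 to 53.0 CPM) and Cd44 in T cells at day 2 (371 CPM against 340 to 383). Cd44 in smooth muscle at day 7 was another (97.4 CPM against 88.0 to 105). Some of these calls rested on 1 cell. Without the top cell of each label, also chosen after seeing the data, tenocytes at day 7 fell below the free level for Spp1 (312 CPM), as did neutrophils at day 2 for Gpnmb and Lgals3, and the Cd44 counts were again 5 and 9. Of the 6 labels, 5 and 2 were then above it for Spp1, M1 macrophages and patrolling monocytes alone at day 7, and 4 and 5 for Gpnmb.

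Cd44 was highest in neutrophils, which move through tissue on hyaluronan, at 2305 CPM (2238 to 2374) at day 2, with a count in 96.9% of 708 cells and 19.6% of all Cd44 counts. Neutrophils had 10 kept cells at day 7. In pro-remodeling FAPs, the matrix-producing stromal cells, Cd44 was at 444 and 126 CPM, a log2 ratio of −1.82, and their share of all Cd44 counts was 6.80% and 15.7%. These FAPs numbered 138 and 495 cells. Of the counts of all genes they held 3507456 of 34026345 at day 2 and 5890256 of 27620535 at day 7. The lower level at day 7 was thus not limited to the monocyte and macrophage labels, and stem-labelled endothelial cells were at −1.28. It was not general either: Cd44 stayed within 2-fold in dendritic cells (−0.58), T cells (−0.57), smooth muscle (−0.69) and capillary endothelium (−0.90). Lgals3 in dendritic cells was at 2548 and 1481 CPM, with a count in 97.1% and 86.9% of cells.

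FAPs had counts of Gpnmb and few of Trem2. Pro-remodeling FAPs had Gpnmb at 9.98 CPM (6.95 to 13.9) at day 2 and 41.1 CPM (36.1 to 46.6) at day 7, which gave a log2 ratio of 2.04 (1.53 to 2.60), with a count in 18.1% and 29.1% of cells and, thinned to 2000 counts, in 0.725% and 9.29% (median depth 26217.5 and 10156 counts). Adipogenic FAPs had 4 counts in 30 cells at day 2 (11.2 CPM) and 161 counts in 232 cells at day 7 (97.8 CPM, 83.3 to 114), where 33.6% of cells had a count, and 17.1% once thinned. Stem-labelled FAPs were at 7.88 and 44.0 CPM. These levels were below the free level, 44.9 CPM at day 2 and 218 CPM at day 7, and the part of free RNA in them was not tested. A higher Gpnmb level at day 7 was not particular to FAPs. On at most 11 counts a day, the log2 ratio was 3.05 in dendritic cells and 1.79 in smooth muscle cells. It was 2.08 in stem-labelled and 2.06 in capillary endothelial cells, with intervals that held 0. The ratio of Gpnmb to Trem2 counts is given beside the FAP levels as a description.

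That ratio was 17.9 (9.19 to 39.8) in adipogenic FAPs at day 7, 8.64 (5.83 to 13.3) in pro-remodeling FAPs and 9 (2.77 to 46.4) in stem-labelled FAPs, and 7 (2.73 to 22.9) in pro-remodeling FAPs at day 2. In barcodes of free RNA it was 0.717 at day 2 and 0.848 at day 7, and in monocyte and macrophage labels 0.196 to 0.97 and 0.285 to 1.39. The FAP intervals at day 7 lay above all of these values. Tenocytes at day 7, with 29 Gpnmb counts, were at 4.83 (1.97 to 14.2), also above them, and neural cells, with 14, at 3.5 with an interval that reached the macrophage values. Among FAPs with no count of a macrophage marker at day 7, Gpnmb was counted in 30.1% (23.3% to 37.5%) of 173 adipogenic and 28.3% (23.4% to 33.6%) of 315 pro-remodeling cells, and in 17.6% (8.401% to 30.9%) of 51 stem-labelled cells. Chosen the same way, the share was 15.2% (5.11% to 31.9%) of 33 tenocytes, 13.3% (3.76% to 30.7%) of 30 neural cells, 7.69% of 104 muscle stem cells (MuSCs), 6.42% of 109 myoblasts or progenitors, 3.66% of 164 smooth muscle cells and 1.90% of 211 T cells. The intervals of tenocytes and neural cells overlapped those of all 3 FAP labels. Median depths were 5180.5 and 10156 counts in all cells labelled adipogenic and pro-remodeling FAPs, 8635.5 in smooth muscle and 3620 in T cells.

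**Figure D5:**
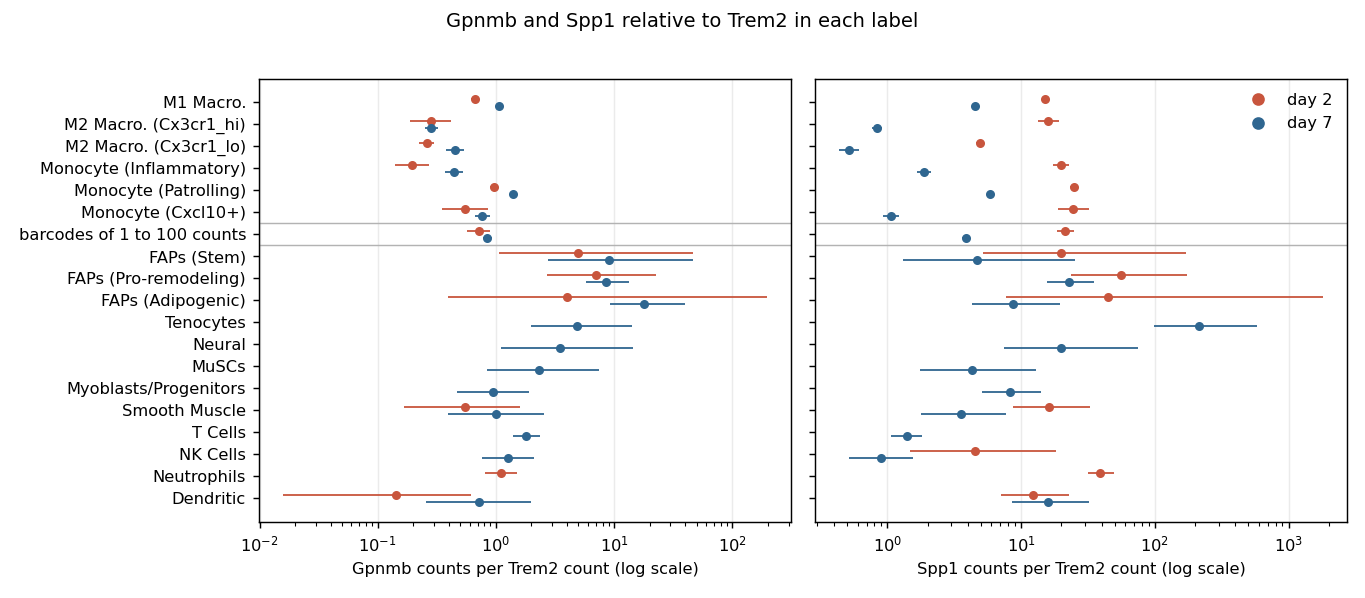
Ratio of Gpnmb to Trem2 counts and of Spp1 to Trem2 counts per cell type label and day, and in barcodes of 1 to 100 counts, on log axes with exact 95% counting intervals, for labels with a count of both genes and without B cells, endothelium and myonuclei. Adipogenic, pro-remodeling and stem-labelled FAPs at day 7 lie at 17.9, 8.64 and 9 Gpnmb counts per Trem2 count, to the right of the monocyte and macrophage labels (0.285 to 1.39) and of the barcodes of free RNA (0.848).

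Spp1 relative to Trem2 was 4.96 to 24.7 in monocyte and macrophage labels at day 2 and 0.518 to 5.89 at day 7, and 21.4 and 3.85 in free RNA. At day 7 it was 23.0 (15.7 to 34.8) in pro-remodeling FAPs, 15.8 (8.62 to 32.3) in dendritic cells and 20 (7.51 to 75.2) in neural cells, where Spp1 was at 373 CPM with a count in 39.0% of 41 cells. Tenocytes at day 7 had Spp1 at 2869 CPM, but 1 cell held 1152 of the 1282 counts, and without it the level was 312 CPM. Lone cells likewise held most of the Gpnmb counts of T and NK cells at day 7. Gpnmb in T cells was at 107 CPM, of which 1 cell with 318 counts of macrophage markers held 166 of 174 counts, and without it 5.01 CPM were left, while Trem2 went from 59.0 to 16.3 CPM. Gpnmb in NK cells went from 77.4 to 20.8 CPM without its top cell.

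Genes that act with the 5 members were read from 7 lists in the same class and comparison, against 11.0% of genes past 2-fold higher and 14.5% lower. Of 8 integrin genes of osteopontin receptors 7 had enough counts, 3 were higher and 1 was lower, with a median log2 ratio of 0.26. Itgb5 was at 104 and 251 CPM (1.26), Itga4 at 45.3 and 108 CPM (1.25) and Itga9 at 5.22 and 35.5 CPM (2.77), all receptor subunits that bind osteopontin. Itgb7, which pairs with Itga4 in lymphocyte homing, was at 93.1 and 26.3 CPM (−1.82). Itgav and Itgb1, the widely used subunits, stayed within 2-fold at 0.26 and −0.40.

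For TREM2, 2 of 6 tested genes of the signalling and ligand list were higher and 0 were lower, with a median of 0.34. Apoe was at 2672 and 43534 CPM, a log2 ratio of 4.03 (4.01 to 4.04), and Hcst, an adaptor related to Tyrobp, at 34.0 and 73.7 CPM (1.11). The adaptor Tyrobp itself was at 2261 and 3314 CPM (0.55) and the kinase Syk at 153 and 150 CPM (−0.02), both within 2-fold while Trem2 was 5.07-fold higher. The neighbouring TREM family went lower or stayed: of 4 tested genes 2 were lower and 0 higher, with a median of −2.68. Trem1, an amplifier of inflammation, had 954 counts at day 2 and 15 at day 7 (−4.86, −5.70 to −4.13), and Trem3 332 and 2 counts (−6.24, −9.29 to −4.38).

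Of 5 tested regulators and relatives of GPNMB, 1 was higher and 1 lower, with a median of −0.07. Tfeb, a MITF-family regulator of lysosome genes, was at 16.1 and 51.7 CPM (1.68), and Mitf at 48.5 and 46.1 CPM (−0.07). Sdc4, a heparan sulphate proteoglycan that binds GPNMB, was at 216 and 102 CPM (−1.08).

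The 11 lipid-associated genes split evenly in the class as a whole, 3 higher and 3 lower with a median of 0.07. Lpl was at 297 and 691 CPM (1.22), Cd9 at 234 and 770 CPM (1.72) and Lipa, the lysosomal acid lipase, at 130 and 419 CPM (1.69). Plin2, which coats lipid droplets, was at 1265 and 597 CPM (−1.08), and Ctsl at 2687 and 1229 CPM (−1.13), with Fabp5 the third lower gene. The list thus did not follow Gpnmb and Trem2 between days, while 7 and 8 of its 11 genes were past 2-fold higher in the cells that carried Spp1, Gpnmb and Trem2 at each day.

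Among galectins and a galectin ligand, 4 of 5 genes were tested, 1 was higher and 1 lower, with a median of −0.49. Lgals3bp, a glycoprotein that binds galectin-3, was at 152 and 484 CPM (1.67), and Lgals1, galectin-1, at 2939 and 911 CPM (−1.69). Of 7 genes of hyaluronan metabolism and CD44 ligands 3 were tested, 0 were higher and 1 was lower, with a median of −0.79. That was Vcan, versican, a hyaluronan-binding proteoglycan of monocytes, with 6549 and 15 counts (−7.64, −8.48 to −6.91). Hyal1 was at 19.3 and 30.1 CPM (0.64), and of the hyaluronan synthases Has1 had 32 and 6 counts, Has2 3 and 0, and Has3 0 and 0.

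Finally, the genes most like each member were taken from the correlation of log2(CPM + 1) over 41 combinations of label and day, among 12454 genes. Trem2 went with C1qa, C1qb and C1qc, subunits of complement C1q (Pearson 0.948, 0.948 and 0.940), and Gpnmb with Apoe (0.855), Atp6v0d2, a subunit of the lysosomal proton pump (0.837), and Trem2 (0.822). Atp6v0d2 was at 16.8 CPM in the class at day 2 and 231 CPM at day 7, a log2 ratio of 3.78 (3.59 to 3.97). Spp1 went with Pla2g7, a secreted phospholipase that binds lipoproteins (0.886), Lgals3 (0.874) and Rnf149 (0.862). Lgals3 went with Rbm47 (0.944), Slc37a2 (0.942) and Lyz2, the lysozyme of macrophages (0.941), and Cd44 with Ifrd1 (0.929), Nfe2l2 (0.895) and Tgif1 (0.886). Between members the correlation was lowest for Gpnmb with Cd44, at 0.19, and Trem2 with Cd44, at 0.37. These points share 2 libraries and include many labels at or below the free level of these genes, so the values describe these tables only.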

How the data were processed

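Per the labels and the study's methods, the authors dissociated whole tibialis anterior muscles, prepared 10x Genomics v3 libraries, and mapped reads to mm10 with Cell Ranger (3.0.1 in the file headers, 3.1.0 in the submitters' processing notes). They removed free RNA with SoupX, called doublets with DoubletFinder and named clusters of a larger integrated collection with Seurat (3.1.5 in the processing notes). The deposited matrices held counts of UMIs per gene and barcode, and the SoupX matrices estimated counts, which were used unrounded as an alternative and without a count model. The annotation's cell type labels were taken as deposited.

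Here the uncorrected counts were summed per label and day over barcodes of the annotation with at least 750 genes, 1000 counts and at most 30% mitochondrial counts, limits set on SoupX values. No doublet caller was run. The kept labelled cells held 34026345 counts at day 2 and 27620535 at day 7, and 1 mouse per day set the precision. The members and all lists were chosen with earlier results of these data known. Levels have exact Poisson, shares Clopper-Pearson and ratios conditional binomial 95% intervals, and the floor for a count of 0 is 3 counts. Genes were compared from 100 counts in one library. Levels were given for labels with at least 20 cells and ratios from 50. Cells were thinned to 2000 counts with a fixed seed. The named genes were the 5 members, the genes of the partner lists and, for each member, the 3 genes with the highest Pearson correlation. Genes of marker lists were named in checks, and cells with all 3 genes were defined on the thinned counts. Python 3.11.15, numpy 2.4.6, scipy 1.17.1, pandas 2.3.3 and matplotlib 3.10.9 were used, and the scripts were tested on simulated data. Protein features were not analysed here.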

Additional observations from a re-analysis of the deposited data

Results flagged for a closer look

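The Spp1 log2 ratio of day 7 to day 2 differed in direction between labels, with every interval on one side of 0. It was 0.74 in M1 macrophages and 0.068 in patrolling monocytes, and −1.56 in M2 Cx3cr1_hi macrophages, −1.93 in M2 Cx3cr1_lo macrophages and −0.47 in inflammatory monocytes. With 1 library per day this difference between labels was not tested, and the patrolling value was −0.024 without 1 cell of each day.

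The annotation does not list 1299 called barcodes at day 2 and 1473 at day 7. Those that passed the limits on genes, counts and mitochondrial share, 680 with a median of 4546 counts and 477 with a median of 2879, also had counts of the 5 genes, above the 0.525 and 0.927 CPM that a count of 0 allows but in part not above free RNA. At day 2 they had Spp1 at 1222 CPM, Gpnmb at 47.6 CPM, Trem2 at 97.6 CPM, Lgals3 at 1925 CPM and Cd44 at 583 CPM. At day 7 the levels were 472 CPM for Spp1, 150.2 CPM for Gpnmb, 208 CPM for Trem2, 684 CPM for Lgals3 and 159 CPM for Cd44. The free level was above these for Spp1 at both days (1338 and 991 CPM) and at day 7 for Gpnmb (218 CPM), Trem2 (258 CPM) and Lgals3 (755 CPM), and Gpnmb at day 2 lay within its interval (37.7 to 53.0 CPM). Macrophage markers in the same barcodes summed to 1257 CPM at day 2 and 2789 CPM at day 7.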

How the results depend on the processing

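Gpnmb, Trem2 and Cd44 kept their direction and stayed past 2-fold in the class under all alternatives run, except that the median over cells gave no Gpnmb ratio because the day 2 median was 0. In the order Spp1, Gpnmb, Trem2, Lgals3 and Cd44, the log2 ratio was −0.050, 2.75, 2.27, −0.51 and −1.91 for the mean over cells, 0.57, 3.22, 2.55, 0.050 and −1.56 with median-of-ratios scaling, and 0.24, 2.90, 2.25, −0.20 and −1.70 at the day 2 label makeup. Without the 5% deepest cells it was 0.080, 2.75, 2.29 and −0.36 for the first 4 genes. Without cells with counts of another class it was 0.060 for Spp1, 2.25 for Trem2, −0.22 for Lgals3 and −1.86 for Cd44. For 2 alternatives chosen after seeing the data (as were both changes to counts above the free level), it was 0.28 for Spp1 and −0.21 for Lgals3 without the top cell, −0.024 for Spp1 in patrolling monocytes, and −0.63 for Spp1, 2.68 for Trem2, −0.996 for Lgals3 and −2.13 for Cd44 as a ratio of medians over cells. The share with Spp1, Gpnmb and Trem2, 23.0% and 50.1%, was 6.28% and 31.5% thinned to 2000 counts, 12.5% and 45.2% thinned to 4000, 17.0% and 40.8% at 2 counts per gene, and 45.6% at day 7 without cells with counts of another class. SoupX values and other limits on cells left these within their intervals. Of 30 recomputed shares of counts in the class, 20 left their counting interval, by at most 0.947 points upward and 13.7 points downward, for Cd44 at day 7. The causes were not tested. No paired analysis was possible because each day had 1 library, and for the same reason no replicate could be left out. Depth limits labels of few cells.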
